A study of Rattus norvegicus with 24 samples.

Results

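The genes described here are 35 p53 targets and DNA repair genes of the rat thyroid gland, chosen by name: 20 classical p53 targets, 4 repair genes that p53 induces, 4 checkpoint kinases and 7 repair enzymes and scaffolds. Of the 35, 34 had a probe on the array, and 32 were bright enough to be among the 20290 genes tested. Ddb2, which recognises damaged bases, had no probe under its name. Brca1, a scaffold of break repair, was not well above background on any array (0 of 24), and Pmaip1, which encodes the death-promoting protein Noxa, was so on 1 of 24, so neither was tested.

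The samples were thyroid glands of RccHan Wistar rat pups, measured on 24 Agilent 1-colour arrays, 4 in each of 6 groups. Control groups drank tap water. Acrylamide groups were exposed through the drinking water to 3 mg per kg body weight per day, the dams from gestational day 6 and their pups until postnatal day 35 ± 3. The 3 pairs of groups were females and males killed at 10 PM (night) and females killed at 10 AM (morning), and males killed in the morning were not analysed here. The labels do not tie an array to an animal or litter, so the p-values reflect only the spread among these arrays, which may be partly technical.

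p53 is a transcription factor that is kept low by the ubiquitin ligase Mdm2 and accumulates when DNA is damaged. It then induces genes that stop the cell cycle (Cdkn1a), trigger cell death (Bax, Bbc3, Fas), limit oxidative and metabolic stress (Sesn1) or feed back on p53 itself (Mdm2, Ccng1). Upstream of it, the kinases Atm and Atr sense breaks and stalled replication and act through Chek2 and Chek1. Acrylamide is converted in the body to glycidamide, an epoxide that reacts with DNA bases. Apex1, Xrcc1 and Parp1 take part in base excision repair, which Ogg1 starts at oxidised guanine, and Mgmt removes some alkyl groups from guanine. Which of them act on glycidamide lesions was not tested. The members therefore cover the response to DNA damage and some of the enzymes that repair it.

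The letters that p53 recognises are shown first, because the results below concern genes known for responding to it. The RefSeq promoter table (build GRCr8, 250 bases before to 50 bases after each gene start) held 28 of the 35 members. The p53 consensus half-site, a motif of 10 bases searched on both strands, was present in 6 of these 28 windows (21.4%), against 7.98% of 33469 promoter windows of the same length. A pair of such sites within 13 bases, the form of a full response element, was in 0 of the 28 and in 0.0598% of all windows. Only exact matches were counted, so elements with a mismatch or outside these windows were not found by this search. The 6 half-sites are printed below in capitals with up to 25 bases on either side, each read 5′ to 3′ on the strand of its gene. In Cdkn1a, at chr20:7150706-7150765 on the plus strand, the site starts at position -201 from the gene start. Sesn1 has it at position -172 (chr20:46948522-46948581, plus strand), and Ccng1 at position -232 (chr10:25685074-25685126, minus strand). In Ei24 it lies at position -79 (chr8:44699416-44699475, minus strand), in Gadd45a at position -48 (chr4:97486813-97486872, minus strand), and in Aen, which encodes a nuclease of apoptosis, at position -30 (chr1:142224478-142224532, plus strand). A match describes these letters and is not a measured binding site.
Cdkn1a: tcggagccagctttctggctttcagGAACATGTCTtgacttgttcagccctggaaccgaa
Sesn1: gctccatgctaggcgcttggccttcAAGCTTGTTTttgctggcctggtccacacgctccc
Ccng1: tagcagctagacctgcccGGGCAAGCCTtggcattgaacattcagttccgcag
Ei24: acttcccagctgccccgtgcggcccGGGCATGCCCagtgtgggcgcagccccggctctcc
Gadd45a: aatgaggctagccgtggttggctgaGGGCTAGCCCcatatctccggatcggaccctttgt
Aen: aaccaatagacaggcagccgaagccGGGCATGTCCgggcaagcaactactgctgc

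Cell types and sex-linked signal set some arrays apart, and they are named before the results. In acrylamide morning female 1 the mean level of 12 thyroid follicular markers was -3.45, against 1.21 to 1.98 in the other 3 arrays of its group and 1.89 to 2.35 in morning controls. The mean of 11 T cell and thymocyte markers was 0.82 in acrylamide morning female 2, against -3.72 to -2.14 in the controls. In acrylamide morning female 1 the 6 C cell markers averaged -2.59 and the 3 parathyroid markers -5.28, against at least 1.71 and -0.72 in morning controls. Over the acrylamide morning group the parathyroid median was -0.19 (controls 2.34), and that of 8 oesophageal epithelium markers was -0.04 with a highest array at 1.63 (controls -2.34, highest -1.48). Muscle markers were low in acrylamide night female 2 (3.95) and acrylamide night male 2 (2.07), where the night controls were at or above 6.83. Pituitary markers had higher group medians with acrylamide at night, -2.98 in females and -1.26 in males, than in night controls, -4.78 and -4.97. The female groups overlapped, with a lowest acrylamide array at -5.33 and controls at -5.44 to -4.17. The male groups did not, at -3.23 to -0.24 against -5.40 to -4.27. The Y-linked Ube1y1 stood at -6.44 in acrylamide night male 4, against -4.16 to -3.13 in the other 7 night males and -8.89 to -8.00 in night females. In control morning female 4 it stood at -4.56, against -8.24 to -7.14 in the other 7 morning females, so the sex labels of these 2 arrays were not borne out by this gene. The probe of Sry, also Y-linked, overlapped between night females and night males and set neither array apart, so the point rests on Ube1y1 alone. The part of the arrays named here in the results was not tested beyond the values given without them. In whole glands, fewer cells of a type and less RNA per cell cannot be told apart.

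Levels are log2 signals minus the 75th percentile of the array, so that 0 is that percentile, and they compare arrays for 1 probe, not genes with each other. Differences are acrylamide minus control on the log2 scale with the standard error (SE) of the limma fit, and a gene passed the test where its adjusted p was under 0.05 over all 20290 genes. The number of arrays limits the precision: the 95% confidence interval of a member's difference reached a median of 0.52 to either side, and 1.62 for the most variable member. Changes well inside these limits were not detectable with 4 arrays a group. The fit used 1 estimate of the spread per gene for all groups. The median standard deviation of a gene, however, ran from 0.18 in control night females to 0.45 in acrylamide morning females. SEs may therefore be too wide for night females and too narrow for morning females, and p-values are not strictly comparable between them.

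No member passed the test with acrylamide in any group of animals, up or down. The share of all tested genes that passed was 0% in night females, 0% in night males and 2.1% in morning females (427 genes, 88 higher and 339 lower). That morning count ranged from 0 to 960 over the other settings and from 3 to 2132 when 1 array was left out. Other settings gave other sets of passing genes, not these 427. Of the genes passing there, the share higher was 33.3% with arrays scaled to their median and 8.41% with the normexp background correction. Members with an unadjusted p under 0.05 numbered 2 of 32 in night females (1.87% of all genes), 4 in night males (13.6%) and 6 in morning females (23.9%). The 4 acrylamide arrays did not overlap the 4 controls in 4 members in night females (5.45% of all genes), in 2 in night males (4.47%) and in 2 in morning females (8.59%). For the mean of the 3 differences 0 members passed (0.00493% of all genes, which is 1 gene), and 3 had an unadjusted p under 0.05 (6.67% of all genes).

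The members' differences were about as large as those of all genes, with median absolute differences of 0.124, 0.278 and 0.353 in night females, night males and morning females, beside 0.130, 0.253 and 0.319 over all genes tested. The signed median difference of the 32 was 0.03 in night females, 0.05 in night males and 0.13 in morning females, beside 0.02, 0.00 and -0.11 over all genes tested. Higher members numbered 20, 18 and 22 of 32 in the same order, or 62.5%, 56.2% and 68.8%, where 55.7%, 50.5% and 40.4% of all genes were higher. By role, the 19 p53 targets tested had medians of 0.03, 0.05 and 0.13, and the 6 repair enzymes and scaffolds of -0.01, -0.03 and 0.10. The 4 checkpoint kinases were all higher in females at night (median 0.37), split 2 and 2 in males (median -0.01) and were higher in 3 of 4 in the morning (median 0.17), with 0 of 4 past the test each time. Of these kinases, Chek1 is known to rise with cell division. For comparison, 24 of 24 cell cycle genes were higher in night females, 18 of 24 in night males and 24 of 24 in morning females. Whether dividing cells account for the kinases was not tested.

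**Figure D1:**
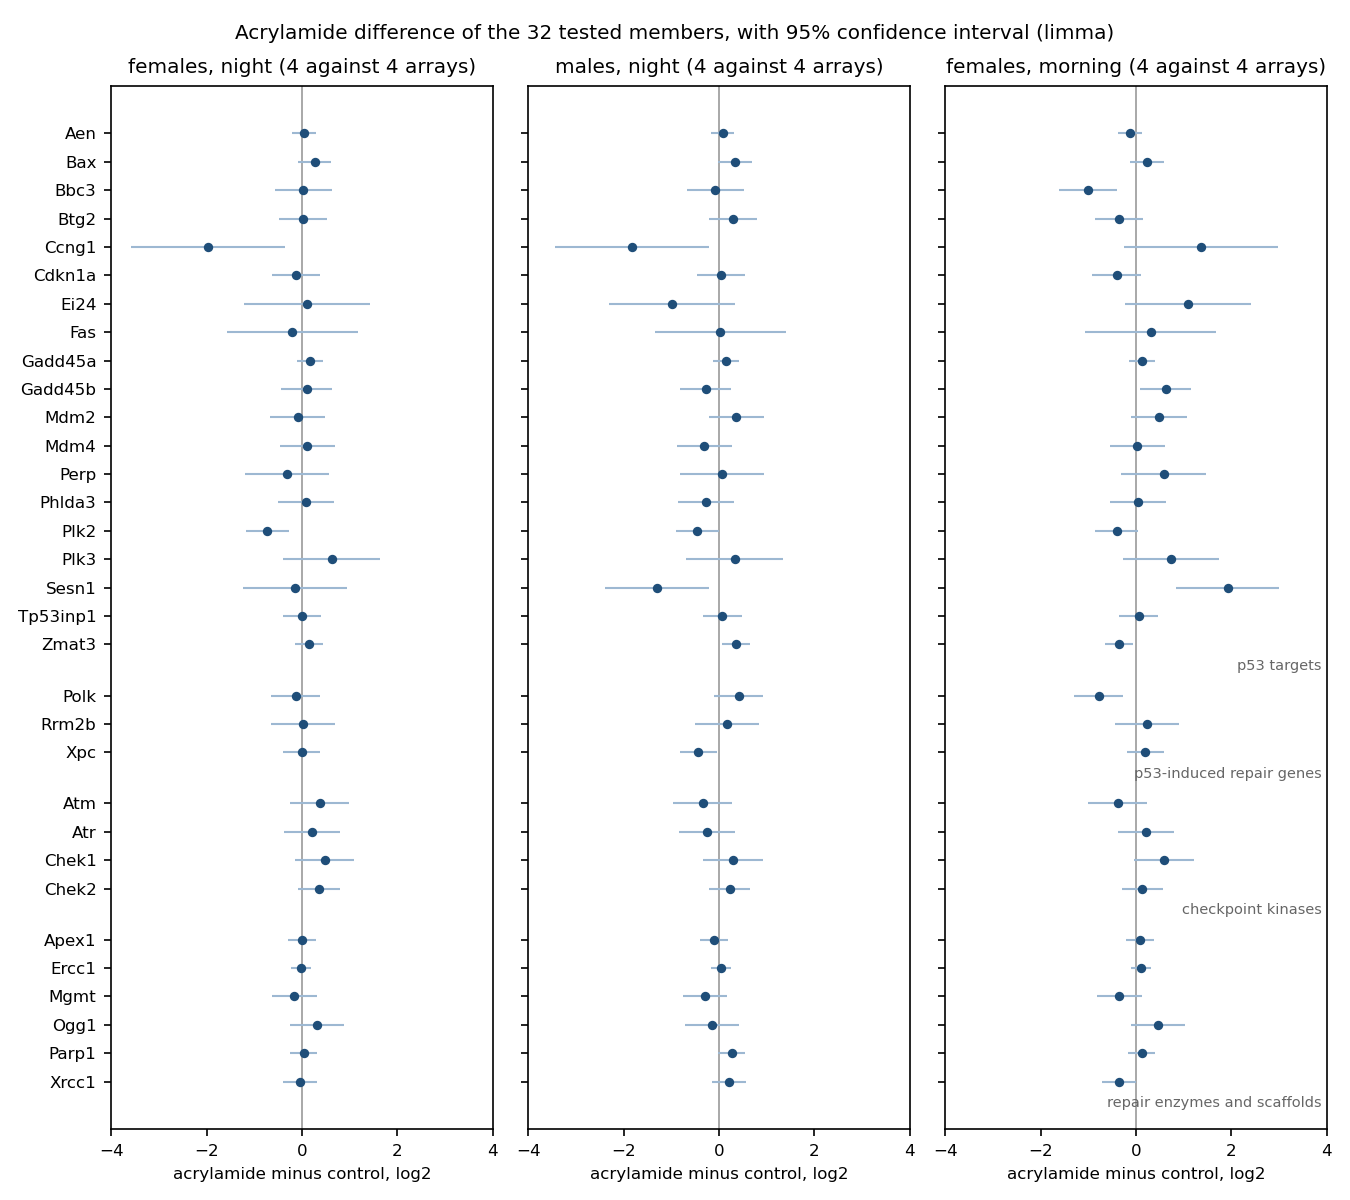
Acrylamide minus control on the log2 scale (x axis) for each of the 32 tested members (y axis, grouped by role) in night females, night males and morning females; points are limma differences of 4 against 4 arrays and bars their 95% confidence intervals. Most intervals cross 0; Plk2 lies left of 0 in all 3 panels, Ccng1 at -1.96, -1.82 and 1.36, and Sesn1 at -0.14, -1.30 and 1.92.

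Among the textbook p53 targets, Cdkn1a, which encodes the cyclin-dependent kinase inhibitor that halts the cell cycle, did not pass the test in any of the 3 comparisons. In females at night its control arrays read 3.68, 3.66, 3.84 and 3.79 and its acrylamide arrays 3.55, 3.79, 3.51 and 3.63. In males at night the controls read 3.48, 3.07, 3.54 and 4.43 and the acrylamide arrays 3.73, 3.30, 3.99 and 3.69. The groups overlapped in both sexes, and the differences were -0.12 (SE 0.24) and 0.05 (SE 0.24). In morning females the controls read 5.56, 5.94, 5.45 and 6.09 and the acrylamide arrays 5.32, 5.08, 6.01 and 5.01. Acrylamide array 3 reached the level of the controls and the other 3 lay below all of them, a difference of -0.41 (SE 0.24, adjusted p = 0.307).

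A second Cdkn1a probe gave another picture in the morning. The brighter probe, which stands for the gene above, lies at chr20:7385536-7385595 on build rn4, and the dimmer at chr20:7386596-7386655, further along the same strand. The dimmer probe read 1.72, 0.57, 1.18 and 2.49 in morning controls and 4.04, 2.29, 3.38 and 2.16 in acrylamide morning females, with acrylamide arrays 1 and 3 above every control. Its difference was 1.48 (adjusted p = 0.0585 in limma), against -0.41 on the brighter probe, and at night the probes again had opposite signs (0.16 against -0.12 in females, -0.22 against 0.05 in males). With the mean over both probes the morning difference was 0.54. The direction of Cdkn1a with acrylamide therefore depends on the probe.

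Mdm2, the ligase that degrades p53, lay close together in night females, with controls at 0.27, 0.26, 0.23 and 0.20 and acrylamide arrays at 0.16, -0.02, 0.17 and 0.30 (difference -0.09, SE 0.28). In night males it read 0.29, 0.25, -1.42 and 0.10 in controls and 0.10, 0.37, -0.30 and 0.52 with acrylamide. Control male 3 lay far below the others, and the difference of 0.37 (SE 0.28) became -0.04 without it. In morning females the controls read 0.38, -0.18, 0.23 and 0.51 and the acrylamide arrays 1.10, 0.41, 0.79 and 0.59, with 3 of the 4 acrylamide arrays above every control (difference 0.49, SE 0.28, adjusted p = 0.288). Of the 6 members with more than 1 probe, the probes differed in sign in 3 in night females, in 5 in night males and in 4 in morning females.

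**Figure D2:**
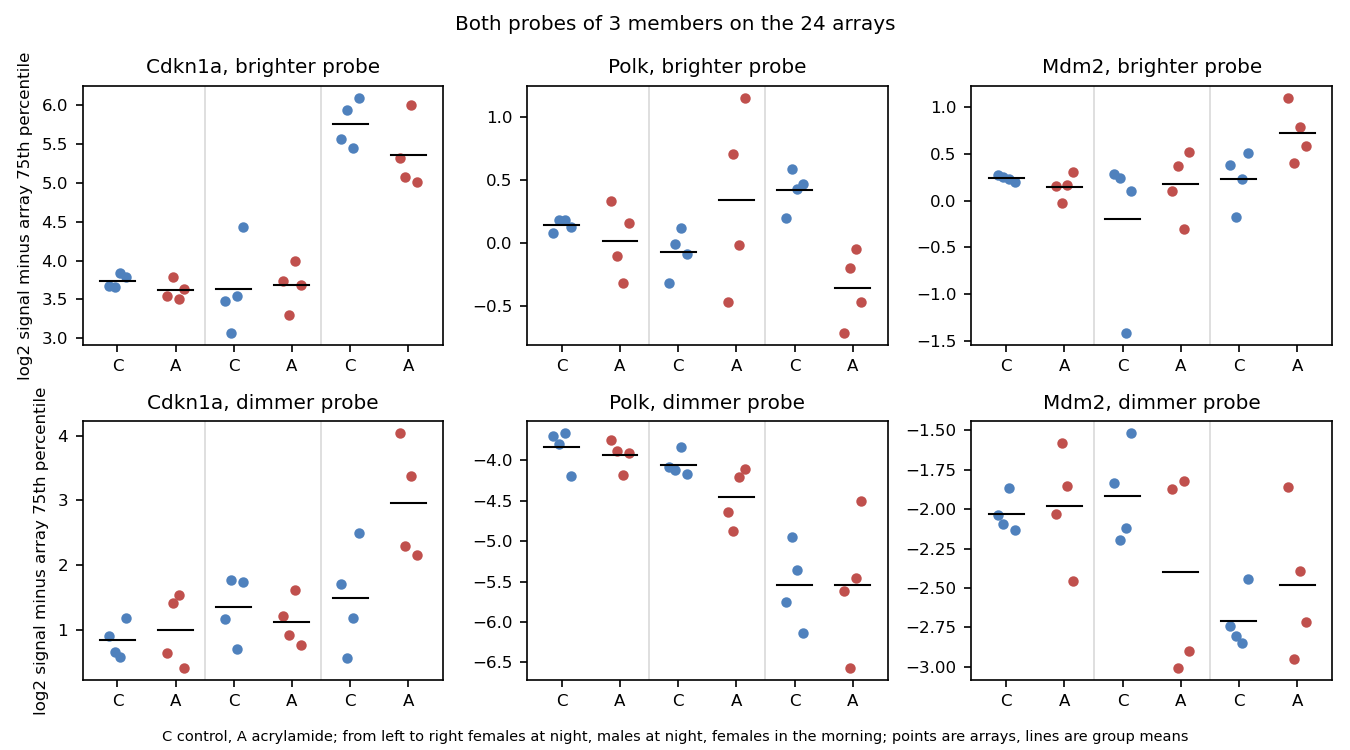
Level of the brighter (top) and dimmer (bottom) probe of Cdkn1a, Polk and Mdm2 on the 24 arrays (y axis, log2 signal minus array 75th percentile; C control, A acrylamide; points are arrays and lines group means). In the morning groups at the right, Cdkn1a with acrylamide is lower on the brighter probe (-0.41) and higher on the dimmer (1.48), and Polk is lower on the brighter probe (-0.78) and level on the dimmer (0.01). The dimmer Polk probe was well above background on only 1 of 4 controls and 2 of 4 acrylamide arrays there.

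Ccng1, the cyclin G1 that p53 induces and that acts back on Mdm2, was the most scattered of the members, with a standard deviation of 1.17 within groups against a median of 0.36 for the members and 0.37 for all genes. In females at night its controls read 2.12, 2.60, 2.00 and 1.63 and its acrylamide arrays 0.80, -1.49, 2.17 and -0.99. In males at night the controls read 3.20, 2.70, 1.82 and 3.41 and the acrylamide arrays -0.45, 0.89, 1.45 and 1.95. Acrylamide arrays were lower in both night groups, with some overlap, by -1.96 (SE 0.78, adjusted p = 1.00) and -1.82 (SE 0.78, adjusted p = 0.353). In the morning the controls read -0.48, 1.04, 2.02 and 3.78 and the acrylamide arrays 3.81, 2.62, 3.19 and 2.17, higher by 1.36 (SE 0.78). That sign was not shared by the 2 morning slides, where the difference was 2.05 on 1 and -0.78 on the other. The difference between its night and morning effects in females was -3.32 (SE 1.10, adjusted p = 0.226), with 0% of all genes past the test for this contrast.

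Plk2, a polo-like kinase that p53 induces under stress, had the lowest unadjusted p of the members in females at night (0.0030). Its controls read -1.50, -1.87, -1.65 and -1.84 and its acrylamide arrays -2.14, -2.34, -2.70 and -2.61, so every acrylamide array lay below every control (difference -0.73, SE 0.22, adjusted p = 1.00). In night males the controls read -1.55, -2.41, -1.54 and -1.22 and the acrylamide arrays -1.98, -2.41, -1.83 and -2.32, and only control male 2 lay among the acrylamide arrays (difference -0.45, SE 0.22, adjusted p = 0.367). In morning females the controls read -1.64, -1.59, -1.48 and -1.50 and the acrylamide arrays -2.11, -2.30, -1.46 and -1.98, with acrylamide array 3 above all controls (difference -0.41, SE 0.22, adjusted p = 0.253). The mean of the 3 differences was -0.53 (95% confidence interval -0.79 to -0.27, adjusted p = 0.365), and its adjusted p ran from 0.0864 to 0.735 over the alternatives tried. It lay at -0.45 without acrylamide night males 2 and 4 and at -0.45 without acrylamide morning females 1 and 2. p53 is known to raise Plk2, which here was lower in each of the 3 comparisons without passing the test.

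Bax, which opens the mitochondrial membrane in cell death, was higher in each of the 3 comparisons without passing the test. It met none of the rules for naming members and was added by hand. In females at night the controls read -1.45, -1.04, -1.25 and -1.08 and the acrylamide arrays -0.88, -1.13, -1.07 and -0.66. In males at night they read -1.33, -1.81, -0.98 and -1.31 and -0.96, -1.12, -0.98 and -0.99. In the morning the controls read -1.42, -1.61, -1.49 and -1.65 and the acrylamide arrays -1.29, -0.998, -1.72 and -1.21. The groups overlapped each time, with differences of 0.27, 0.34 and 0.24 (SE 0.17 in each), and the mean of the 3 was 0.28 (SE 0.10, adjusted p = 0.578). Over all members, 10 of 32 (31.2%) had the same sign in all 3 comparisons, against 19.4% of all genes tested. The 8 that were higher each time were Bax, Chek1, Chek2, Gadd45a, Parp1, Plk3, Rrm2b and Tp53inp1, and the 2 that were lower were Plk2 and Mgmt.

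**Figure D3:**
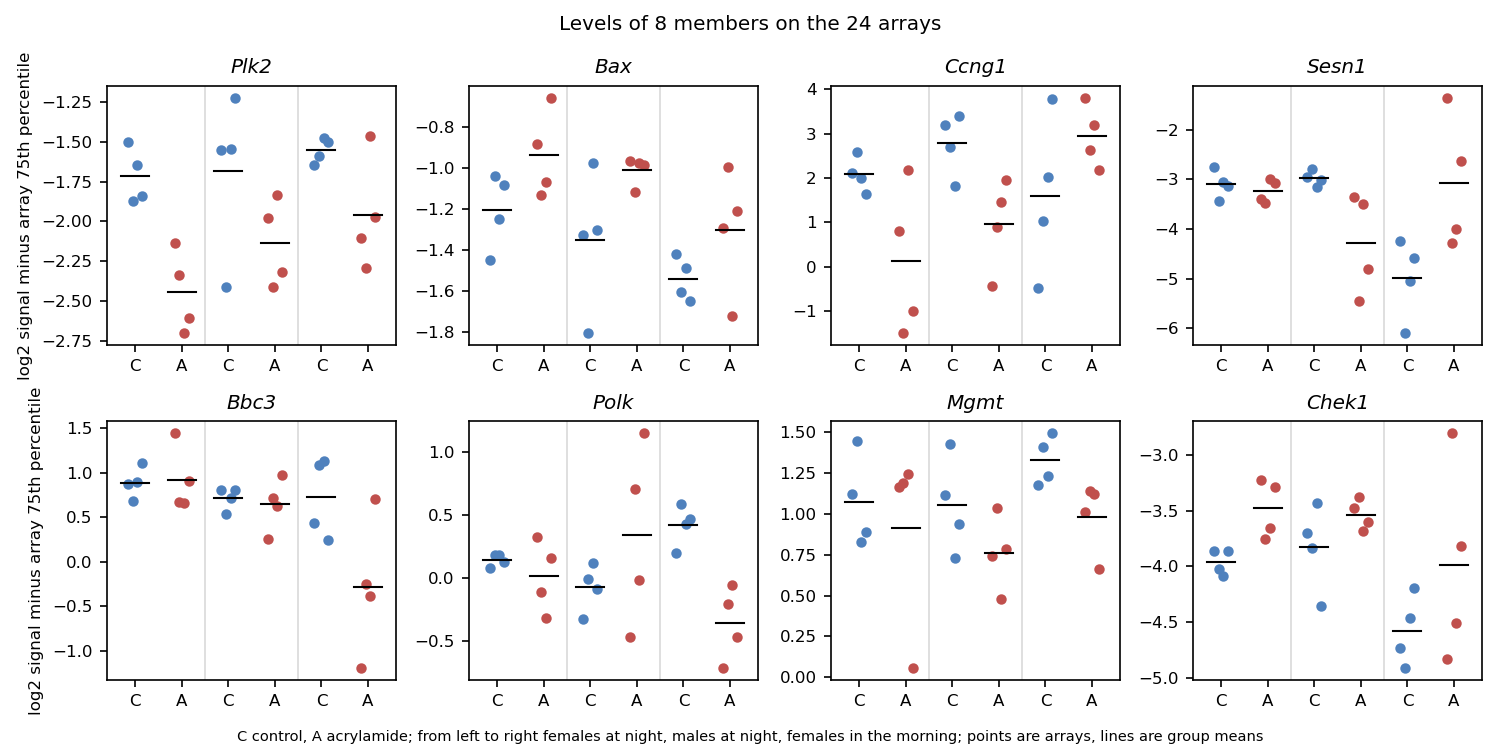
Level of Plk2, Bax, Ccng1, Sesn1, Bbc3, Polk, Mgmt and Chek1 on the 24 arrays (y axis, log2 signal minus array 75th percentile; C control, A acrylamide, for night females, night males and morning females from left to right; points are arrays and lines group means). The 4 acrylamide points of Plk2 at night in females (-2.70 to -2.14) lie below its 4 controls (-1.87 to -1.50), and the acrylamide points of Sesn1 are lower in night males and higher in morning females.

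Sesn1, a sestrin that restrains growth signalling and peroxides, had opposite signs in night males and morning females. In night females the controls read -2.76, -3.44, -3.05 and -3.13 and the acrylamide arrays -3.40, -3.48, -2.996 and -3.08, with full overlap (difference -0.14, SE 0.52). In night males the controls read -2.94, -2.80, -3.15 and -3.01 and the acrylamide arrays -3.36, -5.45, -3.49 and -4.80, all below the controls (difference -1.30, SE 0.52, adjusted p = 0.353). Acrylamide males 2 and 4 made up most of it, since the difference was -0.45 without both. In the morning the controls read -4.23, -6.09, -5.05 and -4.57 and the acrylamide arrays -1.36, -4.29, -3.99 and -2.63, which overlapped only at acrylamide array 2 and control array 1. This was the lowest adjusted p of the members (difference 1.92, SE 0.52, 95% confidence interval 0.84 to 3.01, adjusted p = 0.0542). The probe was well above background on 1 of the 4 morning controls and on all 4 acrylamide arrays, so the control level is near its limit.

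The morning value of Sesn1 was smaller without the array that had few follicular transcripts. Without acrylamide morning female 1 the difference was 1.35 (adjusted p = 0.228), and with slide as a term 1.56. It was 0.99 on 1 slide and 2.58 on the other. Without control morning female 4, which carried the Y-linked signal, it was 2.06. With another background correction (normexp) it was 0.56, and with quantile normalization 2.34 (adjusted p = 0.0303), which is past the test. It also passed without acrylamide array 2 (2.33) or array 3 (2.23). The night effect minus the morning effect in females was -2.06 (adjusted p = 0.231).

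Bbc3, which encodes the death-promoting protein Puma, did not separate the groups at night. Its night female controls read 0.87, 0.68, 0.89 and 1.11 and its acrylamide arrays 1.44, 0.67, 0.66 and 0.91. In night males the difference was -0.07. In the morning its controls read 0.43, 1.09, 1.13 and 0.25 and its acrylamide arrays -1.19, -0.25, -0.39 and 0.70, with acrylamide array 4 among the controls and the other 3 below all of them (difference -1.01, SE 0.29, adjusted p = 0.0652). Without acrylamide morning female 1 the difference was -0.70, and without array 4 it was -1.33 (adjusted p = 0.00503), past the test. The signs were the same on both slides (-1.20 and -0.49).

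Zmat3, an RNA-binding zinc finger protein induced by p53, had the smallest unadjusted p among the members in night males. Its controls read 0.17, 0.40, 0.32 and 0.11 and its acrylamide arrays 0.52, 0.79, 0.38 and 0.76, with acrylamide array 3 inside the control range (difference 0.36, SE 0.14, adjusted p = 0.353). In morning females it lay the other way, with controls at 0.23, 0.27, 0.62 and 0.21 and acrylamide arrays at -0.38, -0.04, 0.02 and 0.34 (difference -0.35, SE 0.14, adjusted p = 0.151). The dimmer Zmat3 probe gave -0.20 and 0.01 for these 2 comparisons. For the p53 targets not given array by array with acrylamide (Mdm4, Fas, Plk3, Gadd45a, Gadd45b, Btg2, Perp, Tp53inp1, Aen and Phlda3), differences ran from -0.36 for Btg2 to 0.74 for Plk3, both in the morning, and none passed the test. Ei24, an endoplasmic reticulum protein of the p53 programme, stood at 0.11, -0.98 and 1.10.

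Of the repair genes that p53 induces, Polk, the polymerase that copies past bulky guanine lesions, was the one whose morning groups did not overlap. Its morning controls read 0.20, 0.59, 0.43 and 0.46 and its acrylamide arrays -0.71, -0.20, -0.05 and -0.46, all below the controls (difference -0.78, SE 0.25, adjusted p = 0.0837). It was lower on both slides (-0.53 and -1.05). The difference was -0.66 without acrylamide morning female 1, and -0.88 and past the test without array 3 (adjusted p = 0.0417). The dimmer probe differed by 0.01 in the morning. It was well above background on only 1 of 4 morning controls and 2 of 4 acrylamide arrays, so it could not show a decrease reliably. At night Polk differed by -0.13 in females and by 0.42 in males. Xpc, which recognises distorted DNA, was lower in night males by -0.43 (SE 0.19), and Rrm2b, a ribonucleotide reductase subunit, stood at 0.02, 0.18 and 0.24.

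Among the checkpoint kinases, Chek1 and Chek2 were the members whose night female groups did not overlap upward. Chek1 controls read -3.86, -4.03, -4.09 and -3.86 and acrylamide arrays -3.23, -3.75, -3.65 and -3.29 (difference 0.48, SE 0.30, adjusted p = 1.00). Chek2 controls read -4.65, -4.33, -4.41 and -4.36 and acrylamide arrays -4.08, -4.10, -4.08 and -4.03 (difference 0.36, SE 0.21). In males at night they differed by 0.29 and 0.22 and in the morning by 0.59 and 0.13. The highest morning value of both was in acrylamide array 2 (-2.80 for Chek1 and -3.26 for Chek2), the array with the high T cell markers and the highest mean of cell cycle genes (0.28, against -2.24 to -1.73 in the controls). Atm differed by 0.38, -0.34 and -0.39 and Atr by 0.21, -0.25 and 0.21, and each was well above background on only 3 of the 8 morning arrays (the probe of Atr carries that name only in the older of the annotations in the files).

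Mgmt, which removes alkyl groups from guanine, was lower with acrylamide in each comparison without passing the test. In night females the controls read 1.12, 1.45, 0.83 and 0.89 and the acrylamide arrays 1.17, 1.19, 1.24 and 0.06, so that the difference of -0.16 (SE 0.23) rested on acrylamide female 4 and was 0.13 without it. In night males the controls read 1.11, 1.43, 0.73 and 0.94 and the acrylamide arrays 0.74, 1.03, 0.48 and 0.79 (difference -0.29, SE 0.23). In the morning the controls read 1.18, 1.41, 1.23 and 1.50 and the acrylamide arrays 1.01, 1.14, 1.12 and 0.66, all below the controls (difference -0.35, SE 0.23, adjusted p = 0.348).

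Ogg1, the glycosylase that cuts out oxidised guanine, was higher in night females on every acrylamide array. Its controls read -1.86, -1.61, -1.54 and -1.38 and its acrylamide arrays -1.25, -1.26, -1.20 and -1.37, the nearest of them almost level (difference 0.32, SE 0.27, adjusted p = 1.00). In night males the controls read -1.46, -1.64, -1.32 and -1.55 and the acrylamide arrays -1.46, -2.03, -1.34 and -1.75, an overlap with a difference of -0.15 (SE 0.27) that turned to 0.02 with arrays scaled to their median. In the morning the controls read -2.61, -2.67, -2.66 and -3.64 and the acrylamide arrays -2.21, -2.01, -3.50 and -1.97, of which 3 lay above all controls (difference 0.47, SE 0.27, adjusted p = 0.289). The 2 morning slides gave -0.11 and 1.55, and without acrylamide array 3 the difference was 0.83 (adjusted p = 0.0235), past the test.

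Apex1, the endonuclease that opens DNA at the abasic sites left by Ogg1 and other glycosylases, had differences close to 0. Its night female controls read 1.99, 1.63, 1.83 and 1.73 and its acrylamide arrays 1.76, 1.73, 1.76 and 1.96. In night males they read 1.88, 1.72, 1.99 and 1.77 and 1.81, 1.68, 1.74 and 1.69, and in the morning 1.82, 1.65, 2.03 and 1.97 and 1.83, 2.41, 1.65 and 1.93. The differences were 0.01, -0.11 (0.06 with arrays scaled to their median) and 0.09 (SE 0.14 in each), and the mean of the 3 was 0.00 with a 95% confidence interval of -0.17 to 0.17. That interval reflects the spread among arrays for this probe and scaling. It does not cover the choice of scaling or the array row.

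Parp1, which senses strand breaks by making poly(ADP-ribose), separated the night male groups. Its controls read 2.25, 2.25, 2.31 and 2.23 and its acrylamide arrays 2.43, 2.70, 2.33 and 2.65, all above the controls (difference 0.27, SE 0.14, adjusted p = 0.377). In females it differed by 0.04 at night and 0.12 in the morning. Xrcc1, the scaffold that Parp1 recruits, stood at -0.04, 0.21 and -0.36, and Ercc1, a nuclease subunit of excision repair, at -0.02, 0.04 and 0.11. Without acrylamide night male 4, the array whose Ube1y1 level lay between the sexes, the difference of Parp1 was 0.23 and that of Sesn1 -1.12.

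At night 0 of 32 members passed the test of a difference in the acrylamide effect between the sexes (0% of all genes), and 0 had an unadjusted p under 0.05 (2.2% of all genes). Between night and morning females 0 of 32 passed (0% of all genes), and 4, or 12.5%, had an unadjusted p under 0.05, a share below the 16.3% of all genes. These were Ccng1 and Sesn1, given above, Bbc3 (1.04, SE 0.41, adjusted p = 0.243) and Zmat3 (0.50, SE 0.20, adjusted p = 0.249). Collection time is confounded with slide and scan session in these data.

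Under the main settings members passed the test only between control females killed at night and in the morning. There 10 of 32 passed, 9 higher and 1 lower at night. Of all genes tested 48.6% passed, 20.8% higher and 27.8% lower at night, so the members' share was below that of all genes. Of the genes that passed, the share higher at night was 57.6% with arrays scaled to their median, 55.9% with quantile normalization and 28.5% with normexp, and these settings moved the median of all genes by 0.27, 0.16 and -0.28. Night females lie on another slide than morning females and were scanned in another session, in which no spot was saturated, against 188 to 469 saturated spots on each morning array. Time of day, slide and scan session cannot be told apart.

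Cdkn1a was the member that was lower at night. Its night controls lay between 3.66 and 3.84 and its morning controls between 5.45 and 6.09, a difference of -2.02 (SE 0.24, adjusted p = 7.3e-07) or 4.05-fold. The dimmer probe had the same sign and a smaller size (-0.65, adjusted p = 0.206). Mdm2, Zmat3 and Plk2, other targets of p53, differed by 0.00, 0.00 and -0.16 between the same groups. The second probes of Mdm2 and Zmat3 gave 0.68 (adjusted p = 0.0425, past the test) and -0.62 (adjusted p = 0.132), so the size depended on the probe for these genes too. Aen gave 0.25 on its brighter probe and 0.85 on its dimmer (adjusted p = 0.0147, past the test). Polk gave -0.28 and 1.71 (adjusted p = 0.000106 on the dimmer, past the test). That dimmer Polk probe was well above background on only 1 of 4 morning controls. The sign differed between probes in 2 of the 6 members with more than 1 probe.

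The members that were higher at night included Ei24 and Sesn1. Ei24 read -1.74, -1.62, -1.66 and -1.42 in night controls and -3.63, -3.65, -3.97 and -5.59 in morning controls (difference 2.60, SE 0.64, adjusted p = 0.00196). Sesn1 differed by 1.89 (SE 0.52, adjusted p = 0.00486), from the arrays listed above, without overlap. Phlda3, which restrains the kinase Akt, read 1.20, 1.25, 1.31 and 1.46 at night and 0.27, 0.44, 0.16 and -0.78 in the morning (difference 1.28, SE 0.28, adjusted p = 0.000762). Gadd45a, a stress sensor that binds the cell cycle machinery, read 1.04, 1.33, 1.26 and 1.36 at night and 0.48, 0.48, 0.42 and 0.57 in the morning (difference 0.76, SE 0.13, adjusted p = 6.08e-05). For each of these 4 genes every night control lay above every morning control. Over all members the 2 control groups did not overlap in 13 of 32. The share over all genes tested was not counted for this comparison, so it is not read as a trait of the members.

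Several repair genes were on the same side, but not all. Mean control levels were 1.07 at night and 1.33 in the morning for Mgmt, 1.80 and 1.87 for Apex1, and 0.14 and 0.42 for Polk. Those of Ercc1 were 0.62 and 0.61. Of all 32 members 24 were higher and 8 lower at night. Ogg1 was higher at night by 1.30 (SE 0.27, 2.46-fold, adjusted p = 0.000487). Xrcc1 read 3.39, 3.42, 3.55 and 3.402 at night and 2.67, 2.62, 3.00 and 2.40 in the morning (difference 0.76, SE 0.17, adjusted p = 0.000817). Xpc and Parp1 were higher by 0.74 and 0.60, and Atr by 0.85 (SE 0.28, adjusted p = 0.0160), although Atr was well above background on 1 of 4 morning controls. For Ogg1, Xrcc1, Xpc, Parp1 and Atr the night and morning controls did not overlap, again without a share over all genes. With the normexp background correction Atr turned to -0.48 and Sesn1 stood at 0.16 (adjusted p = 0.655). Ei24 was then 1.07 and Ogg1 0.70, smaller by more than 1.5 times but still past the test.

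**Figure D4:**
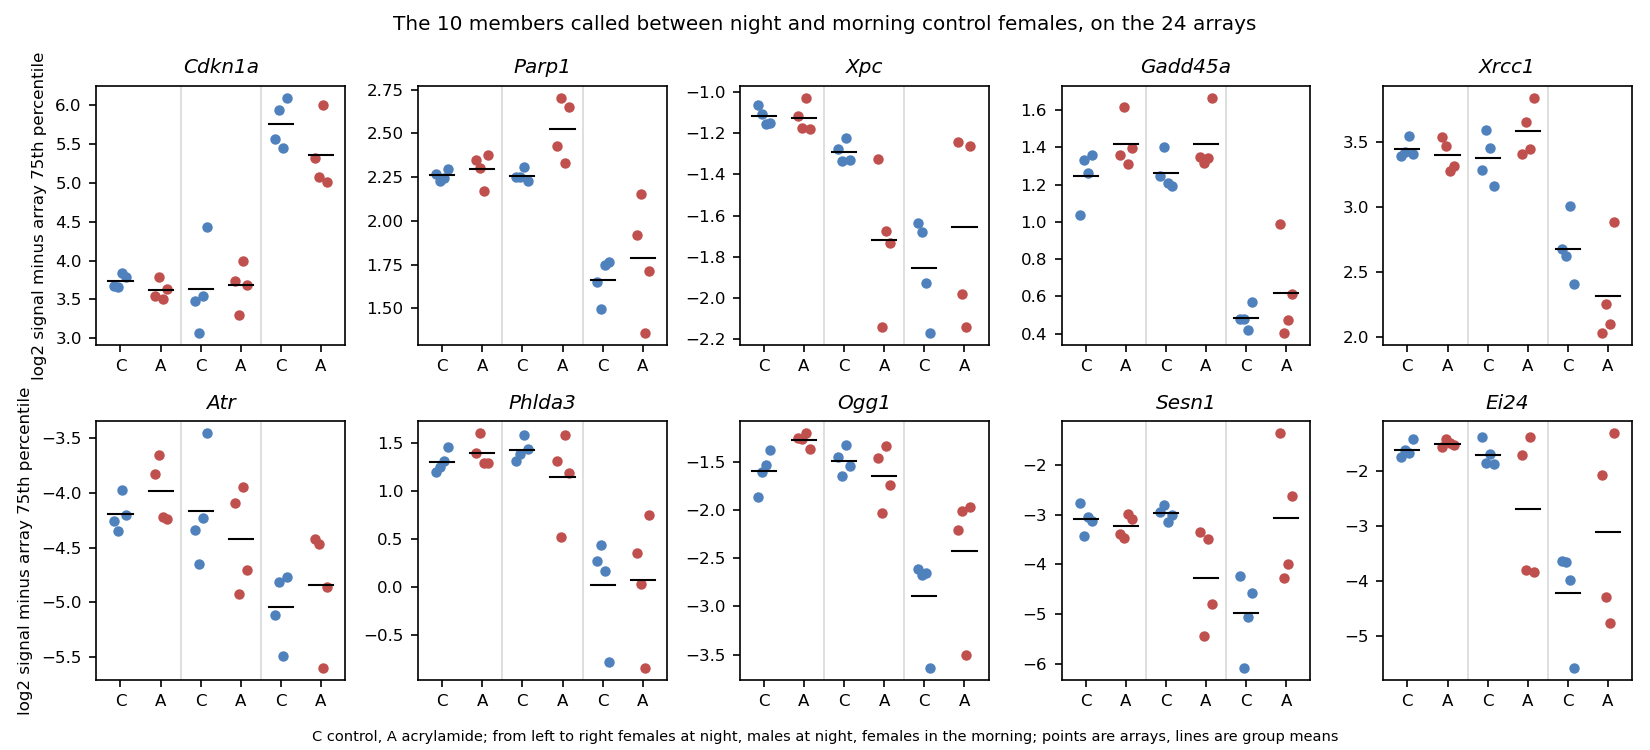
Level of the 10 members that differed between night and morning control females, on the 24 arrays (y axis, log2 signal minus array 75th percentile; C control, A acrylamide, for night females, night males and morning females from left to right; points are arrays and lines group means). Cdkn1a lies between 3.66 and 3.84 in night controls and 5.45 and 6.09 in morning controls, and the other 9 lie lower in the morning.

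Leaving out control morning female 4, the array with the Y-linked signal, left 11 members past the test, beside 8891 of all genes, with Cdkn1a at -1.91 and Ei24 at 2.14. Between night control males and females 0 members passed (0.00986% of all genes, which is 2 genes), and differences ran from -0.44 for Mdm2, which control male 3 set, to 0.70 for Ccng1. The members' median difference between night and morning was 0.25 against 0.02 over all genes, and it was -0.02 with normexp.

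Few other genes of the p53 and repair pathways passed the test with acrylamide. Of 44 other p53 pathway genes 31 were tested, and their medians were -0.03, -0.01 and 0.07 in the 3 comparisons. Of these, 1 gene passed the test, where 2.1% of all genes did in the same comparison: Ccng2, the cyclin G2 relative of Ccng1, in morning females (0.89, SE 0.20, adjusted p = 0.0391), with every acrylamide array above every control. In night males it was lower (-0.61), and in night females it differed by -0.09. Of 108 other repair and checkpoint genes 88 were tested and 0 passed in any of the 3 comparisons, and 72 of the 88 were higher in night females, 49 in night males and 55 in morning females. Their medians were 0.11, 0.08 and 0.15. Between night and morning controls 29 of these 88 were higher and 12 lower at night past the test, and 11 and 8 of the 31 other p53 pathway genes, beside 20.8% and 27.8% of all genes.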

How the data were processed

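The scanner files hold Agilent Feature Extraction 10.1.1.1 output: per the file headers, the processed signal of a spot is a background-subtracted intensity. The authors' deposited series matrix holds log2 values that follow that intensity up to a constant per array. Uneven and outlier spots were removed, log2 was taken, replicate spots were averaged, and the 75th percentile of each array was subtracted. Probes well above background on at least 3 of 4 arrays of a group were kept (23414 of 30367), and the brightest probe stood for its gene (20290 genes). Probe positions are on rn4, per the file headers. Group means were fitted to all 24 arrays with limma 3.58.1 in R 4.3.3 (18 residual degrees of freedom, 2-sided tests, Benjamini-Hochberg over all genes), and the procedure was tested on simulated data. At night, controls lay in array row 1 and acrylamide in row 2, so row and treatment cannot be told apart. Other scalings, corrections, filters and left-out arrays were tried. Members, lists and the naming rule were chosen with earlier results of these data known. Members were given array by array if they were textbook targets (Cdkn1a, Mdm2, Ccng1) or repair enzymes of alkylated or oxidised bases, or did not overlap between groups. The same held for the 3 smallest p-values of a comparison and the 8 largest differences between night and morning controls. Of these 8, Atr was given by its difference only. Bax met none of these rules and was added by hand.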

Additional observations from a re-analysis of the deposited data

Results flagged for a closer look

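Single arrays stood far from the rest of their group of 4 in 7 of the 90 groups checked over 15 members, where chance would mark about 1 in 20. Mdm2 was at -1.42 in control night male 3, and the next array was at 0.10. Mgmt was at 0.056 in acrylamide night female 4 (next 1.17), and Apex1 on the same array at 1.96 (next 1.76). Ogg1 was at -3.64 in control morning female 4 (next -2.67) and at -3.50 in acrylamide morning female 3 (next -2.21). Zmat3 was at 0.62 in control morning female 3 (next 0.27). Bax was at -1.12 in acrylamide night male 2 (next -0.99).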

How the results depend on the processing

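Over the named members, 855 values kept their direction and side of the threshold under the alternatives, 19 reversed, 7 came to pass the test and 2 no longer did; the causes were not tested. Members passing in morning females numbered 1 with quantile normalization and 1 with the replicate block (Sesn1 both times), and 0 to 3 when 1 array was left out (1 without acrylamide array 2, 3 without array 3, 3 without array 4, where all genes passing numbered 1013, 2132 and 1701). Between night and morning controls 16 passed with arrays scaled to their median, 16 with normexp, 16 with the deposited series matrix and 17 with array weights, against 10; all genes passing also rose, to 11180, 11861, 11147 and 13108 from 9864. The members' median was then 0.515, -0.0173 and 0.513 with the first 3, and 0.542 with quantile normalization. For the repair and checkpoint members that median was 0.791 with arrays scaled to their median and -0.1487 with normexp. Normexp also moved the median acrylamide difference of these repair and checkpoint members to -0.1645 in morning females. Their median for the night effect minus the morning effect in females moved to 0.2628. With the mean over a gene's probes Cdkn1a reversed to 0.02024 in night females, -0.08502 in night males and 0.5358 in morning females, and Mdm2 to -0.05895 in night males. In night males, scaling to the array median and the series matrix reversed Ogg1 to 0.01996 and 0.01928 and Apex1 to 0.06381 and 0.06313. Leaving out acrylamide males 2 and 4 together, chosen after seeing the data, took Ogg1 to 0.09461, and leaving out acrylamide morning females 1 and 2 took Apex1 to -0.07589. Normexp turned Atr between night and morning to -0.4841. With 1 array left out, values ranged from -0.268 to 0.1276 for Mgmt and from -0.04784 to 0.07391 for Apex1 in night females, from -0.137 to 0.3162 for Cdkn1a and from -0.03984 to 0.5298 for Mdm2 in night males, and from -0.06369 to 0.1895 for Apex1 in morning females. Same-numbered arrays deviated together at correlations of -0.229 to 0.355, and 3 of 12 pairs matched best with their own number, so the replicate number was not taken as a pairing, and the replicate block changed no other call among the named members. With 4 arrays a group, dim members (Fas, Atm, Atr, Sesn1, Rrm2b) had levels near the background limit on some arrays.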

Other observations

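Several members shared the arrays on which they were low. Ei24 stood at -3.80 and -3.83 in acrylamide night males 2 and 4, against -1.70 and -1.38 in males 1 and 3, and Sesn1 and Xpc had their lowest values of that group on the same 2 arrays. In acrylamide morning females Ei24 stood at -2.08, -4.29, -4.77 and -1.30, with arrays 1 and 4 high, and these were also the 2 highest arrays of Sesn1 and Xpc, while every morning control of Ei24 was at or below -3.63. Arrays 1 and 4 lie on the same slide, with 1 control array, where the difference of Ei24 was 3.897, against -0.78 on the other morning slide. This grouping was noticed after the values were seen and was not tested.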
